A study of Homo sapiens with 4 samples.

Results

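The D-type cyclins and the CDK inhibitors are the 10 genes described here: CCND1, CCND2 and CCND3, which encode cyclins D1, D2 and D3; CDKN1A, CDKN1B and CDKN1C, which encode the CIP/KIP inhibitors p21, p27 and p57; and CDKN2A, CDKN2B, CDKN2C and CDKN2D, which encode the INK4 inhibitors p16, p15, p18 and p19. The rule that takes them from 20162 protein-coding genes goes by family name. Each gene was described by every ChIP-seq peak that overlapped its annotated span or the 50 kb on either side. The data were 3 peak lists from LNCaP, a human prostate cancer cell line that carries an androgen receptor. H3K27Ac was measured at passage 20 in RPMI with charcoal-stripped serum, which is low in steroid hormones, once after 4 h of 10 nM dihydrotestosterone (DHT) and once without it, after ethanol by the study's methods. TCF7L2 was measured at passage 15 in serum that was not stripped, given as 10% in the labels and as a lower percentage in the study's methods. Each condition had 1 library, so no difference below has a replicate check and no test was possible. The 10 windows held 38 of 60752 peaks in the DHT list, 37 of 57623 in the vehicle list and 25 of 20955 in the TCF7L2 list.

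The D-type cyclins bind and activate CDK4 and CDK6, which phosphorylate the retinoblastoma protein and so release E2F factors to switch on the genes of S phase. INK4 inhibitors bind CDK4 and CDK6 and keep the cyclins off them, while CIP/KIP inhibitors act on a wider set of cyclin-CDK complexes, above all those of CDK2. H3K27Ac is an acetylated histone found at active promoters and enhancers. TCF7L2 is one of the DNA-binding factors through which beta-catenin acts on Wnt target genes, of which CCND1 is a textbook example. In prostate cells, androgen acts through a receptor that binds DNA at androgen response elements, often beside forkhead factors.

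The value of a peak was its height, in whole tags, the highest point of the tag pileup as the peak caller gave it. Median heights were 23 tags in the DHT list, 22 in the vehicle list and 31 in the TCF7L2 list. How many reads lay behind each list was not stated, so intervals below are exact 95% Poisson intervals and cover counting error only, as do the exact (Clopper-Pearson) intervals of ratios. A height is the maximum of a pileup that passed the peak caller, so near the lowest heights these intervals may not hold their stated coverage. The tallest peak within 50 kb had a median DHT-to-vehicle ratio of 1.09 over all 18037 genes with a peak in both lists, and a gene at this ratio had moved with the bulk. When the DHT heights were replaced by the vehicle heights of the same rank (rank-matched heights), that median was 1. Of the markers of luminal prostate epithelium 8 of 8 had an H3K27Ac peak over a promoter in both lists, where 55.5% of all genes did. Among these 8, KLK3 had only 10 tags with vehicle, where the lowest height in the list is 9. Basal markers had such a peak at 0 of 3, leukocyte markers at 0 of 2 and stromal markers at 1 of 2. The stromal one was COL1A1, at 37 tags with DHT and 34 with vehicle. The part of other cells in the results was not tested.

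The sites that the results turn on are shown first, in GRCh37/hg19, read on the + strand. Each line but the last is centred on a match to the TCF7L2 motif, searched on both strands as CTTTG followed by AA, AT, TA or TT, and the matches are in capitals. The last line holds the androgen response element, searched on both strands as the half-sites AGNACA and TGTNC with 3 bases between them, and the matching bases are in capitals.
CCND1 start, TCF7L2 peak of 44 tags, chr11:69455797-69455897: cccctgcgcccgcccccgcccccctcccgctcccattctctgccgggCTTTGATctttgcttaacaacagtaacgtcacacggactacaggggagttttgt
CCND3 intron, TCF7L2 peak of 88 tags, chr6:42013400-42013500: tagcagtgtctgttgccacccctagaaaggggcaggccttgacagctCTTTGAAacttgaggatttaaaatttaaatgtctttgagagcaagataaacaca
CDKN1A upstream, TCF7L2 peak of 55 tags, chr6:36630795-36630895: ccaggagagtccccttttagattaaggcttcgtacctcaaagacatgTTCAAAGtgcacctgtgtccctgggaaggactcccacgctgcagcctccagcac
CDKN2B upstream, TCF7L2 peak of 39 tags, chr9:22052697-22052797: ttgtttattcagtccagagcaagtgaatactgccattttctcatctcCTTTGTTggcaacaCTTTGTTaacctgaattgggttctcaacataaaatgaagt
CCND3 intron, androgen response element, chr6:42013555-42013649: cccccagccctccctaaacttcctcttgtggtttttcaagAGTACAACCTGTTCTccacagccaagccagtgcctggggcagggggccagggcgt

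By its tallest peak, the acetylation around each of the 10 genes differed by less than 1.5-fold between the conditions. Single regions within the windows, given below, differed more. The tallest peak was higher with DHT than with vehicle at 8 of 10 genes, where 70.7% of all genes were, and on rank-matched heights at 6 of 10, where 48.2% of all genes were. None of the 10 genes reached a ratio of 1.5, a level that 8.68% of all genes reached, and none fell to 1/1.5 or less, as 1.95% of all genes did. The median ratio was 1.12 over the 10 genes and 1.09 over all genes, and on rank-matched heights it was 1.04 and 1. In every case the tallest DHT peak and the tallest vehicle peak overlapped, so the 2 values came from one place.

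**Figure D1:**
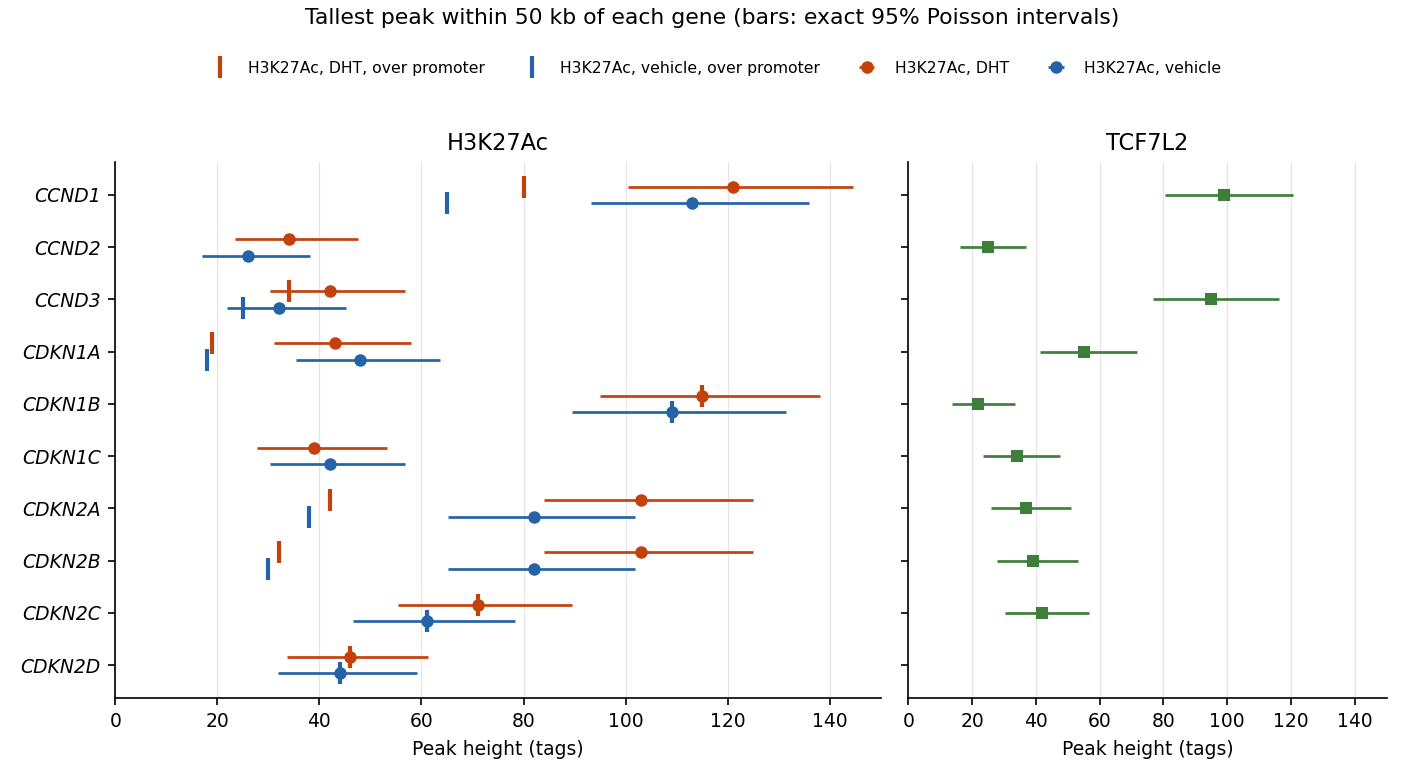
Height in tags (x axis) of the tallest H3K27Ac peak within 50 kb of each gene with DHT (orange) and with vehicle (blue), and of the tallest TCF7L2 peak (green, right panel), with exact 95% Poisson intervals as bars and vertical ticks for the tallest H3K27Ac peak over a promoter. DHT and vehicle intervals overlap at each of the 10 genes, CCND2 and CDKN1C have no promoter tick, and CDKN2D has no TCF7L2 peak.

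The cyclin D1 gene, CCND1 (chr11:69455924-69469242, + strand), had the tallest acetylation of the family. Its tallest peak had 121 tags with DHT (100.4 to 145) and 113 with vehicle (93.1 to 136), at the 91.3rd percentile of all genes in both lists. This peak did not lie over the promoter but over the 3′ end of the gene, its region centred 11.7 kb downstream of the start and ending beyond the last exon. The start itself lay in a separate region of 80 tags with DHT and 65 with vehicle, a ratio of 1.23 (0.876 to 1.73), which was 1.14 on rank-matched heights. The third region in both lists, over the promoter of the neighbouring gene LTO1, had 22 tags with DHT and 21 with vehicle. The intervals overlapped in all 3. A peak of 10 tags was in the DHT list only and 2 of 9 tags were in the vehicle list only, all near the lowest height either list holds. No further H3K27Ac peak was found up to 413 kb below the gene or 356 kb above it in either list.

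TCF7L2 was found at 4 places around CCND1. The tallest, of 99 tags (80.5 to 121), lay 2.85 kb upstream of the start at chr11:69452730-69453419 and at the edge of the acetylated promoter region. It held no form of the TCF7L2 motif within 150 bp of its centre. The peak of 44 tags lay over the start, and the CTTTGAT shown above for it lay 80 to 74 bp upstream of the canonical start and 32 bp from the peak's centre. The other two, of 46 and 38 tags, lay 59.5 and 61.4 kb downstream in introns of FGF19, a growth factor gene, and overlapped no H3K27Ac peak. Of the acetylated regions of CCND1, the one over the start thus held 2 TCF7L2 peaks and the taller one over the 3′ end held none.

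The cyclin D2 gene, CCND2 (chr12:4378937-4414519, + strand), carried no H3K27Ac peak over any annotated start in either list. The only acetylated region in its window had 34 tags with DHT (23.5 to 47.5) and 26 with vehicle (17.0 to 38.1), and lay 47.3 kb downstream of the canonical start over the promoter of TIGAR, which encodes a fructose bisphosphatase. Beyond the window the next H3K27Ac peaks were 330 kb below and 232 kb above the gene. TCF7L2 had 1 peak of 25 tags, 1.76 kb upstream of the canonical start and outside acetylation. The promoter at the canonical start of CCND2 was 59.3% G and C, with a CpG ratio (observed over expected) of 0.596. At its outermost start, chr12:4378937, these values were 59.7% and 0.939. Over the outermost starts of all genes, in windows of 1101 bp, the medians were 52.5% and 0.559.

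CCND3 (chr6:41902672-42018095, − strand), which encodes cyclin D3, had no region that was lower with DHT, as was also the case for CCND1, CCND2, CDKN2C and CDKN2D as deposited. All 7 of its regions in both lists were higher with DHT than with vehicle, at ratios of 1.14 to 2.56 with a median of 1.36, where 57.1% of all regions in both lists were higher. On rank-matched heights 6 were higher and 1 was equal, where 38.7% of all regions were higher. An eighth region, of 12 tags, was in the DHT list only. These regions share a library in each condition and so are not replicates of one another.

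The 3 tallest of these regions lay over promoters. One over the shared promoter of BYSL and MED20 had 42 tags with DHT (30.3 to 56.8) and 32 with vehicle (21.9 to 45.2). The canonical start of CCND3, which belongs to its short transcripts, lay in a region of 34 tags with DHT (23.5 to 47.5) and 25 with vehicle (16.2 to 36.9). A region of 33 tags with DHT and 27 with vehicle lay over the promoter of USP49, a deubiquitinase gene. In each of these regions the intervals overlapped.

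The regions with the largest ratios lay inside the long transcripts of CCND3. The region at chr6:41971890-41973539 had 23 tags with DHT (14.6 to 34.5) and 9 with vehicle (4.12 to 17.1), a ratio of 2.56 (1.14 to 6.28) and 2.22 on rank-matched heights. Its peak was 1.65 kb wide with DHT and 0.539 kb wide with vehicle. The vehicle height of 9 tags is the lowest which that list holds, so the interval of this ratio is a description only. The region at chr6:42012420-42014489 had 30 tags with DHT (20.2 to 42.8) and 19 with vehicle (11.4 to 29.7), a ratio of 1.58 (0.860 to 2.97) that was 1.42 on rank-matched heights. Among all regions with vehicle heights of 9 to 14 tags 28.0% reached 1.5, and of 15 to 24 tags 16.5% did.

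The region at chr6:42012420-42014489 was also the one where a TCF7L2 motif and an androgen response element lay together. It held the TCF7L2 peak of 88 tags, with the CTTTGAA shown above 19 bp from its centre. It also held the androgen response element shown above, AGTACAACCTGTTCT at chr6:42013595-42013609, which matched in overlapping frames on both strands, 133 bp from the centre of the TCF7L2 peak and 148 bp from the centre of the DHT peak. The element and the centre of the TCF7L2 peak lay in no exon of any annotated transcript. It was the 1 DHT peak of 38 around the 10 genes with an androgen response element (2.63%), where 2.65% of all DHT peaks had one, and the 1 TCF7L2 peak of 25 with one within 150 bp (4%), where 42 of all 20955 TCF7L2 peaks had one. A match of letters is no evidence that a receptor was bound there.

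TCF7L2 had 6 peaks of 25 to 95 tags around CCND3, whose span of 115 kb gave it the longest window. The peak of 95 tags (76.9 to 116) lay at chr6:41934630-41935559 between the short and the long starts and overlapped no H3K27Ac peak. Next came the peak of 88 tags, and a peak of 82 tags over the outermost start of CCND3, which it shares with TAF8 on the other strand, where H3K27Ac was 21 tags with DHT and 15 with vehicle. The other 3 had 36, 31 and 25 tags. The tallest TCF7L2 peak thus stood where no acetylation was called, and the next 2 stood in regions of 21 to 30 tags with DHT and 15 to 19 with vehicle.

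**Figure D2:**
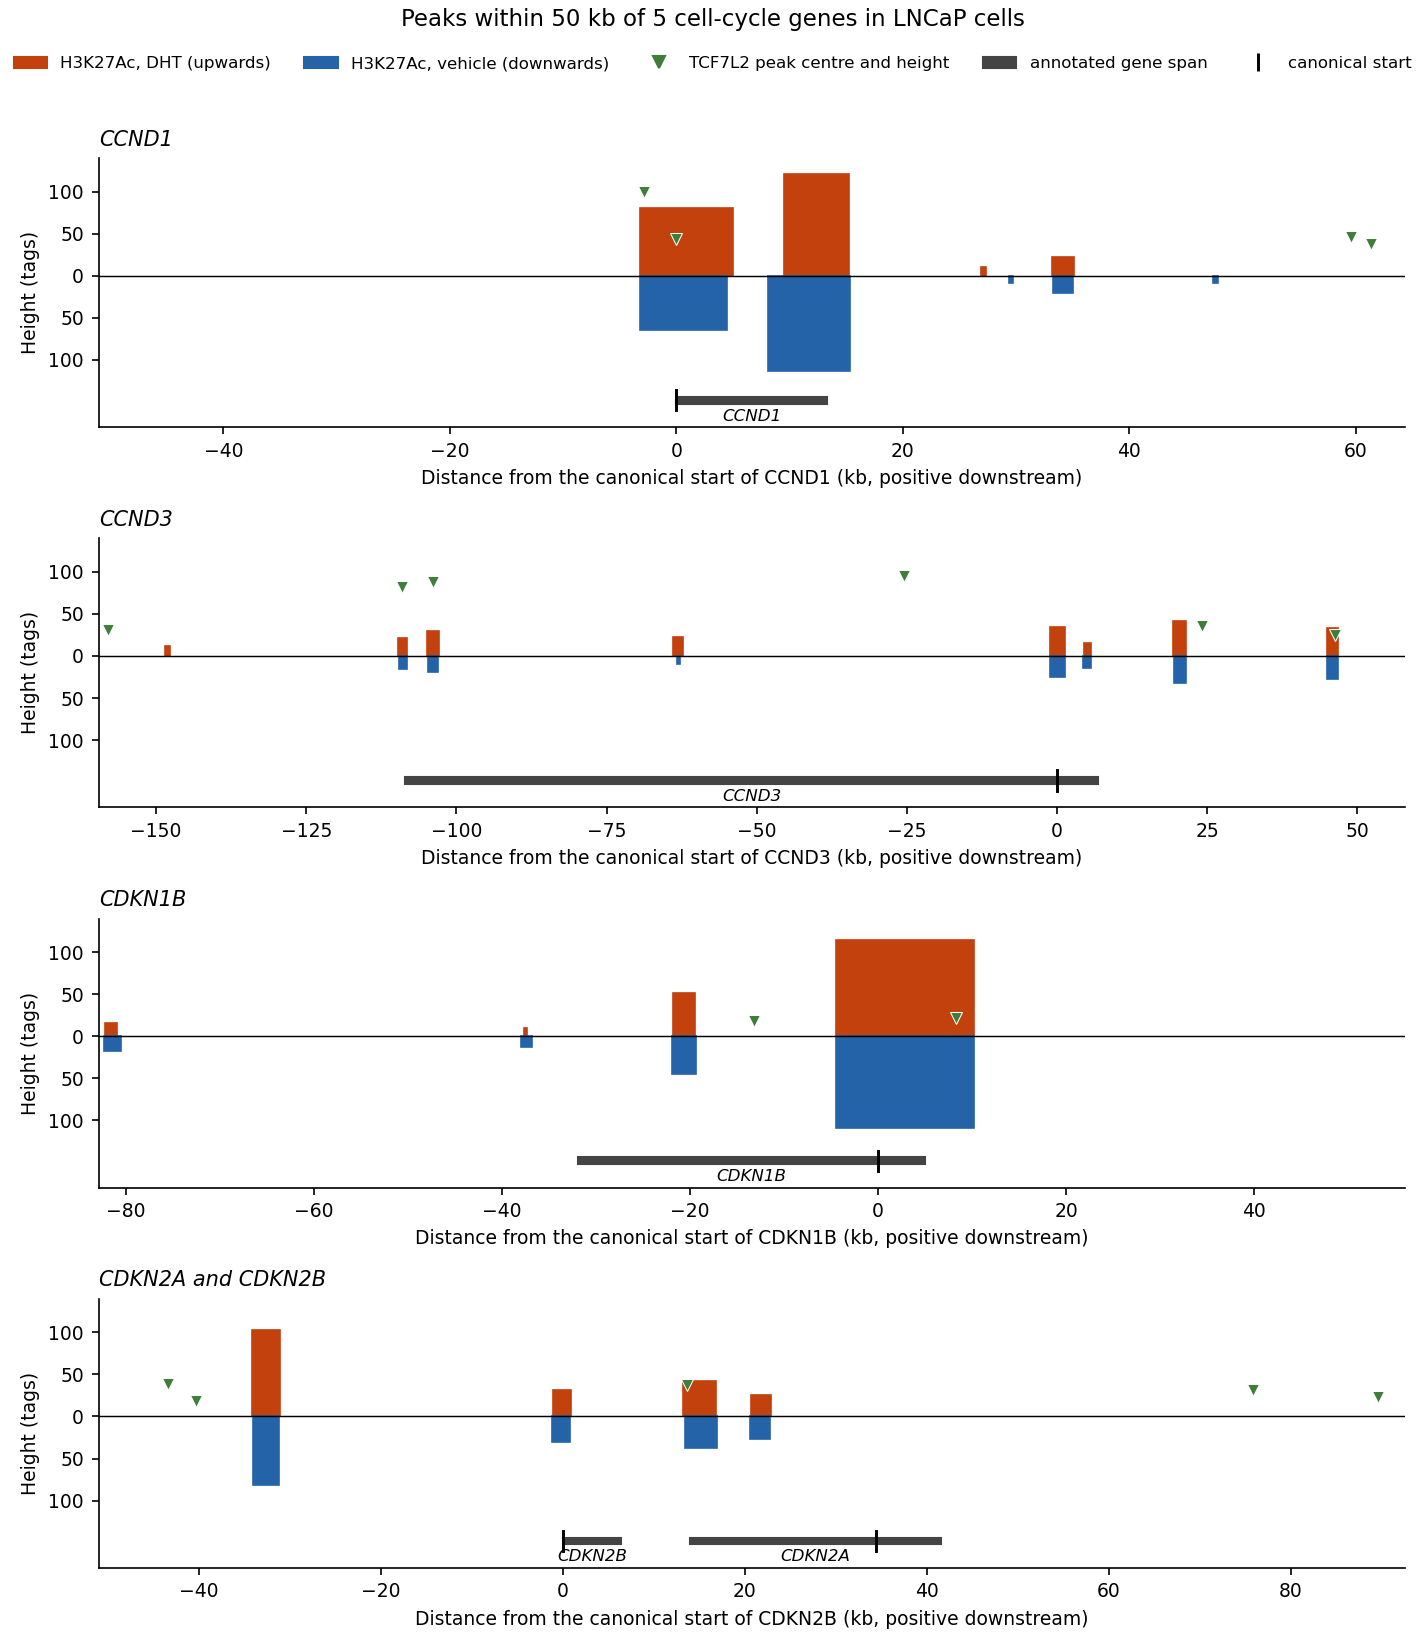
H3K27Ac peaks with DHT (orange, upwards) and with vehicle (blue, downwards) and TCF7L2 peaks (green triangles at their height), in tags on the y axis, by distance in kb from the canonical start of CCND1, CCND3, CDKN1B and CDKN2B on the x axis. Gene spans are dark bars with a tick at the canonical start; at CCND1 the tallest acetylation lies over the 3′ end, and at CCND3 the tallest TCF7L2 peaks lie over low or no acetylation.

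Among the CIP/KIP inhibitors, CDKN1B (chr12:12838432-12875303, + strand), which encodes p27, was the most acetylated. A single domain 14.6 kb wide covered its canonical start and the promoter of APOLD1, with 115 tags with DHT (94.9 to 138) and 109 with vehicle (89.5 to 131). The ratio was 1.06 (0.805 to 1.38) and turned to 0.991 on rank-matched heights. A region over outlying starts of CDKN1B and the GPR19 promoter had 51 tags with DHT and 45 with vehicle. The remaining regions were lower with DHT, one at 16 tags against 18 with vehicle and the other at 10 tags against 13 with vehicle. TCF7L2 was low here, with 22 tags inside the domain and 18 tags at a site 13.2 kb upstream of the canonical start, outside acetylation, where a CTTTGAT lay 4 bp from the peak's centre.

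CDKN1A (chr6:36644237-36655114, + strand), which encodes p21, a target of p53, had a lower tallest peak with DHT, at 43 tags (31.1 to 57.9), than with vehicle, at 48 tags (35.4 to 63.6), a ratio of 0.896 (0.580 to 1.38) and 0.792 on rank-matched heights. This peak lay in intron 1, while the peak over the canonical start was low in both lists, at 19 tags with DHT and 18 with vehicle. A distal region had 21 tags with DHT and 18 with vehicle. TCF7L2 had 3 peaks, of 55, 38 and 30 tags, at 15.8, 27.7 and 11.4 kb upstream of the canonical start, and none of them overlapped an H3K27Ac peak. The 55-tag peak held the TTCAAAG shown above, CTTTGAA on the other strand, 111 bp from its centre, and the 38-tag peak held a CTTTGAA 3 bp from its centre. Acetylation within the gene and TCF7L2 upstream of it were thus apart at CDKN1A.

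CDKN1C (chr11:2904443-2907005, − strand), which encodes p57 and is an imprinted gene, carried no peak over any start in any of the 3 lists, though its promoter was 73.4% G and C with a CpG ratio of 0.773. Its tallest H3K27Ac peak lay 26.9 kb away in intron 5 of SLC22A18, a transporter gene, with 39 tags with DHT (27.7 to 53.3) and 42 with vehicle (30.3 to 56.8). The region over the promoter of PHLDA2 had 27 tags with DHT and 32 with vehicle. The region beyond it had 11 with DHT and 13 with vehicle. All 3 regions in both lists were thus lower with DHT, at ratios of 0.844 to 0.929 and with intervals that overlapped, where 37.3% of all regions were lower. They were lower on rank-matched heights too, where 54.7% of all regions were. A region of 11 tags was in the DHT list only and one of 9 tags in the vehicle list only. The 3 TCF7L2 peaks had 34, 33 and 20 tags, and the 34-tag peak lay over the promoter of PHLDA2.

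The INK4 genes CDKN2A (chr9:21967751-21995300, − strand) and CDKN2B (chr9:22002902-22009304, − strand) lie side by side, and the same 4 acetylated regions fell into both windows. The tallest, at chr9:22040340-22043429, had 103 tags with DHT (84.1 to 125) and 82 with vehicle (65.2 to 102), a ratio of 1.26 (0.931 to 1.70) and 1.16 on rank-matched heights. It lay in intron 1 of CDKN2B-AS1, a long non-coding RNA gene on the other strand, 32.6 kb upstream of the start of CDKN2B. The other 3 regions were less tall and nearly level. They had 42 tags with DHT and 38 with vehicle, 32 with DHT and 30 with vehicle, and 25 with DHT and 27 with vehicle. On rank-matched heights all 3 were lower with DHT, where 54.7% of all regions were.

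The starts of these genes differed from each other. CDKN2B, which encodes p15, had the region of 32 tags with DHT and 30 with vehicle over its canonical start. CDKN2A has a downstream start, from which p16 is made, and an upstream start, from which ARF, a stabiliser of p53, is made. No peak of any list lay over the downstream, canonical start at chr9:21974856, whereas the upstream start at chr9:21994391 lay in the region of 42 tags with DHT and 38 with vehicle and carried a TCF7L2 peak of 37 tags. The promoter at the downstream start was 58.1% G and C and that at the upstream start 65.8%. Further TCF7L2 peaks lay in the windows at 39 and 18 tags in CDKN2B-AS1, upstream of CDKN2B, and at 31 and 23 tags within the span of MTAP, none over acetylation. The 39-tag peak held the pair of CTTTGTT shown above, the nearer of them 108 bp from its centre.

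CDKN2C (chr1:51426417-51440306, + strand), which encodes p18, was acetylated over its outer and its canonical start. The outer one, which it shares with FAF1, had 71 tags with DHT (55.5 to 89.6) and 61 with vehicle (46.7 to 78.4). The canonical one had 69 with DHT (53.7 to 87.3) and 60 with vehicle (45.8 to 77.2). All 4 regions were higher with DHT on deposited heights, where 57.1% of all regions were. They were higher on rank-matched heights too, where 38.7% of all regions were. The largest ratio was in intron 1 of FAF1 at chr1:51415320-51417059, with 21 tags with DHT (13.0 to 32.1) and 9 with vehicle (4.12 to 17.1), a ratio of 2.33 (1.02 to 5.79) and 2 on rank-matched heights. This region too is in the class of low vehicle heights in which 28.0% of all regions reached 1.5. Its vehicle height is the lowest which that list holds, so the interval of its ratio is a description only. The single TCF7L2 peak, of 42 tags, lay over the outer start and held no TCF7L2 motif within 150 bp of its centre.

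CDKN2D (chr19:10677136-10679735, − strand), which encodes p19, was the only one of the 10 genes with no TCF7L2 peak within 50 kb, the nearest being 84.7 kb away. Its promoter had 46 tags with DHT (33.7 to 61.4) and 44 with vehicle (32.0 to 59.1), a ratio of 1.05 that was 0.932 on rank-matched heights. With DHT this promoter had 2 peaks, of 46 and 35 tags, and with vehicle it had 1. The other 4 regions had 14 to 28 tags with DHT and 10 to 21 with vehicle. They were higher with DHT by 1.19 to 1.4, where 57.1% of all regions were higher. The lowest of these ratios became 1 on rank-matched heights. The summed height of all peaks in the window was 169 tags with DHT and 112 with vehicle, a ratio of 1.51, which counts the second promoter peak.

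Over all 10 genes, joining overlapping peaks gave 39 acetylated regions, of which 33 were in both lists. Of the regions in both lists 26 were higher with DHT, where 57.1% of all were, and 7 were lower, where 37.3% were. On rank-matched heights 18 were higher, where 38.7% of all were, and 12 were lower, where 54.7% were. Of the 33, 3 reached a ratio of 1.5, where 14.6% of all did. On rank-matched heights 2 did so, where 5004 of all 49492 did. None fell to 1/1.5 or less, where 6.7% of all did. The median ratio was 1.16, against 1.07 over all 49492 regions in both lists, and 1.02 against 0.947 on rank-matched heights. Regions in the DHT list only numbered 3 of 39, where 15.6% of all 66690 were, and those in the vehicle list only also 3 of 39, where 10.2% of all were. All 6 had 9 to 12 tags.

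**Figure D3:**
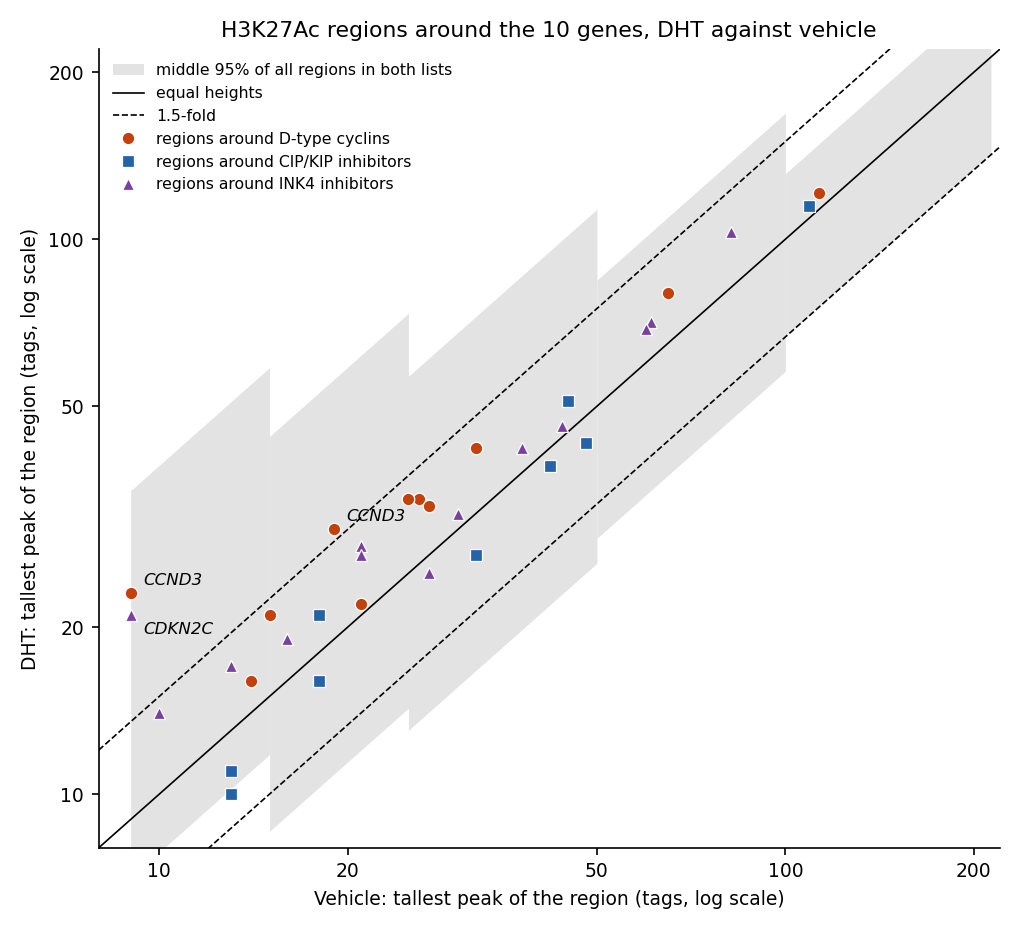
Tallest DHT peak (y axis) against tallest vehicle peak (x axis), in tags on log scales, for the 33 regions around the 10 genes that were in both lists, with equal heights (solid), 1.5-fold (dashed) and the middle 95% of all regions by class of vehicle height (grey). All but 1 of the 33 regions lie within the grey band, the exception being a CDKN1B region of 10 tags with DHT and 13 with vehicle just below it, and the 3 named regions at or above 1.5-fold have vehicle heights of 9, 9 and 19 tags.

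Over promoters, 8 of 10 genes had an H3K27Ac peak in both lists, where 55.5% of all genes did, the exceptions being CCND2 and CDKN1C. All 8 were higher with DHT as deposited, where 81.5% of all promoters were, but only 3 of them, CCND1, CCND3 and CDKN2C, on rank-matched heights, where 54.3% were. The median promoter ratio was 1.09 over the 8 genes and 1.13 over all promoters. None reached 1.5, as 6.38% of all promoters did, and none fell to 1/1.5, as 0.805% did. By family, the median ratio of the tallest peak was 1.31 for the D-type cyclins, 0.929 for CIP/KIP and 1.21 for INK4 genes, and 1.15, 0.833 and 1.11 on rank-matched heights. With 3, 3 and 4 genes in a family, of which CDKN2A and CDKN2B share their tallest peak, these medians are descriptions only.

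Peaks of TCF7L2 were present within 50 kb of 9 of 10 genes, where 66.7% of all genes had one, and over a promoter of 4, CCND1, CCND3, CDKN2A and CDKN2C, where 20.2% of all genes had one. Of the 4, only CCND1 had it over the canonical start. In lists given below, 8 of 20 other G1/S genes, 5 of 8 housekeeping genes and 1 of 8 androgen-induced genes had a promoter peak. Of the 25 peaks 9 shared at least 1 bp with an H3K27Ac peak (36%, 95% Wilson interval 20.2 to 55.5), and of all TCF7L2 peaks 34.5% did. The median height was 42 tags inside acetylation and 33.5 outside it around these genes, and 30 and 33 over the whole list. With only 9 peaks inside acetylation, the medians around these genes are descriptions only. Of the tallest peaks, that of 99 tags lay inside and that of 95 tags outside. TCF7L2 and H3K27Ac came from cells in different serum, so the overlap joins separate cultures.

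The motif of TCF7L2 lay within 150 bp of the centre of 9 of the 25 peaks (36%, 20.2 to 55.5), where 41.0% of all peaks had it. Of the tallest, the peak of 88 tags held it and those of 99, 95 and 82 tags did not. A forkhead motif, TGTTTAC or TGTTTGC on either strand, was in 2 of 25 (8%), where 10.8% of all peaks had one. An AP-1 motif, TGANTCA on either strand, was in 5 of 25 (20%, 8.86 to 39.1), where 47.0% of all peaks had one, and 3 of those 5 were the peaks around CDKN1C. These motifs share no form with each other. In promoters taken at the outermost start of each gene, the TCF7L2 motif was found in 44.7% and the androgen response element in 0.730%.

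The rest of the G1/S machinery also had no tallest peak past 1.5 in either direction. Of all genes, 8.68% reached 1.5 and 1.95% fell to 1/1.5 or less. The 20 other genes taken were CDKs, the CDK-activating phosphatase gene CDC25A, cyclins E and A and the retinoblastoma family. They also included E2F factors and their partners, SKP2, CKS1B and FBXW7. Of the 20, 13 had a higher tallest peak with DHT as deposited, where 70.7% of all genes did. On rank-matched heights 6 did, where 48.2% of all genes did. The median ratio was 1.08, and the largest was that of CDC25A, at 50 tags with DHT and 37 with vehicle (1.35). When the heights of all peaks in the window were summed, 2 of the 20 passed 1.5, where 11.6% of all genes did: CDC25A, with 128 tags in 4 peaks with DHT and 37 tags in 1 peak with vehicle (3.46), and E2F5, with 241 tags with DHT and 149 with vehicle (1.62). This sum was added after the data were seen. By the tallest peak, nearest to no change was SKP2, which helps to degrade p27, at 78 tags with DHT and 77 with vehicle. Within 10 kb of SKP2, however, the tallest peak had 78 tags with DHT and 51 with vehicle (1.53). Its values within 50 kb may thus come from separate places. Next was the transcription factor gene E2F1, at 161 tags with DHT and 165 with vehicle. Of the 18 with a promoter peak in both lists 1 passed 1.5, where 6.38% of all promoters did. This was the retinoblastoma relative RBL1, at 29 tags with DHT and 18 with vehicle. TCF7L2 peaks were within 50 kb of 17 of the 20, where 66.7% of all genes had one.

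Lists of other genes give the scale. Of 8 androgen-induced genes 6 reached 1.5, where 8.68% of all genes did, and the median was 1.85. On rank-matched heights 5 of them did, where 1073 of all 18037 genes did. These 8 genes are textbook examples, but were listed with earlier results of these data known. KLK3, which encodes prostate-specific antigen and is named here after its value was seen, had 180 tags with DHT and 97 with vehicle within 50 kb. Its neighbour KLK2 has the same values and counts as another of the 6. Over the promoter of KLK3 itself there were 148 tags with DHT and 10 with vehicle (14.8). The tallest peak in a window can thus miss a larger change at 1 place in it. Of 8 housekeeping genes none reached 1.5, and the median was 1.1. The 10 cyclin and inhibitor genes, at ratios of 0.896 to 1.31, overlapped in range with the housekeeping genes and with the androgen-induced gene TMPRSS2, at 125 tags with DHT and 106 with vehicle (1.18).

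**Figure D4:**
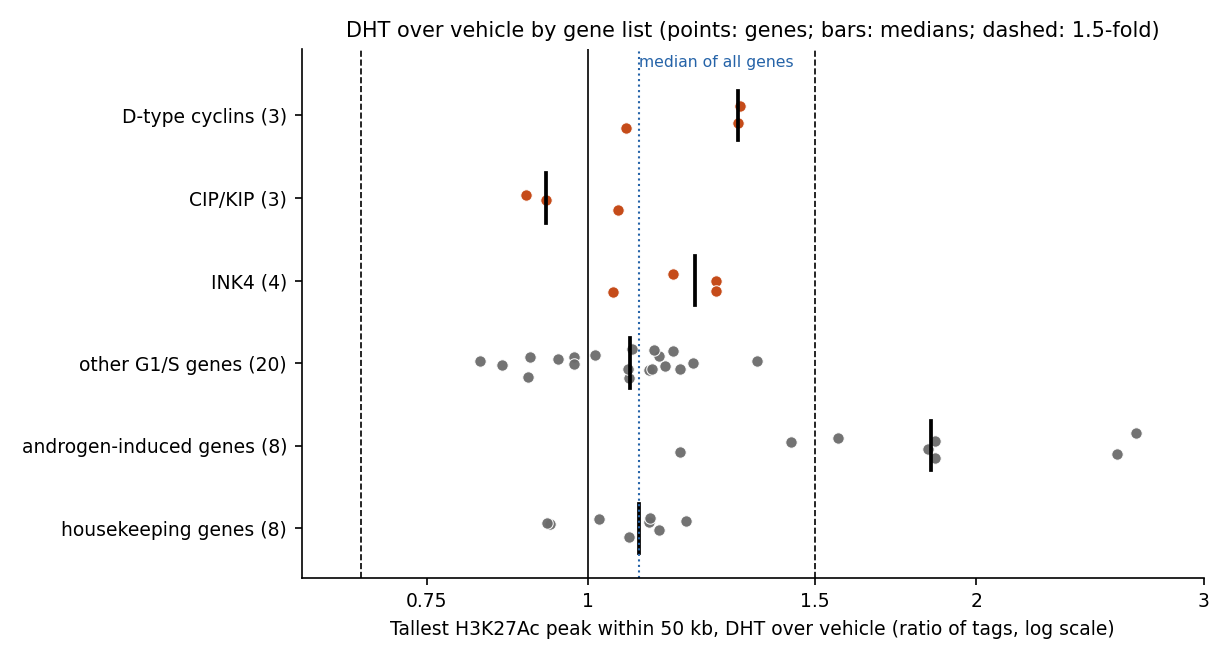
Ratio of DHT to vehicle tags (x axis, log scale) of the tallest H3K27Ac peak within 50 kb for D-type cyclins, CIP/KIP and INK4 inhibitors (orange), other G1/S genes, androgen-induced and housekeeping genes (grey), 1 point a gene, with medians as bars, 1.5-fold as dashed lines and the median of all genes dotted. None of the cyclin, inhibitor or other G1/S genes lies outside the dashed lines, while 6 of 8 androgen-induced genes do.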

How the data were processed

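The 3 libraries analysed here each had a deposited list of peaks on hg19. By the paper, the authors aligned H3K27Ac reads with Bowtie 2 and TCF7L2 reads with ELAND and ran the peak caller Sole-search, with settings that differed between the marks. The submitters' notes name CASAVA 1.8.2, Bowtie2 and BWA. The deposited value is a signal, the tag height of each peak, in whole tags, with starts on a 30 bp grid and no scaling to depth stated in the sources used here. A depth difference would move all ratios together, so rank-matched heights were computed as well. An input library was not analysed here.

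Genes and starts came from GENCODE 44 mapped to GRCh37, the build of the files. Promoters ran from 1000 bp upstream to 100 bp downstream of any start of a gene. Peaks of both H3K27Ac lists that overlapped by 1 bp were joined to 1 region. Motifs were read from the GRCh37 genome with pysam 0.24.0. Intervals were computed with scipy 1.17.1, and the steps were tested on simulated data. Alternatives were windows of 10 and 100 kb, rank-matched heights, the top 25000 H3K27Ac and 15000 TCF7L2 peaks, summed heights, thresholds of 1.25 and 2, an overlap of 50%, and starts widened to 2500 bp.

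All 10 genes were named. Of the other G1/S genes those past 1.5 in either direction and the 2 nearest to no change were named, and other genes where a peak in a window overlapped their promoter. The members and lists were chosen with earlier results of these data known.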

Additional observations from a re-analysis of the deposited data

How the results depend on the processing

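No paired analysis was possible because each condition had 1 library, and leaving out a replicate was not possible either. Of the alternative values 54 stayed within 1.5 times the reported count and 21 did not. With summed heights 1 member reached 1.5 (CDKN2D), where 11.6% of all genes did. So did 2 other G1/S genes (CDC25A and E2F5, an alternative added after the data were seen). At the lower of the other thresholds there were 4 members (CCND2, CCND3, CDKN2A and CDKN2B). Of these, CDKN2A and CDKN2B share their tallest peak and are not separate places. The share of all genes at that threshold was not computed, so whether this count is usual was not tested. Shares were also not computed for genes in windows of 10 kb or for regions within the top 25000 peaks. In windows of 10 kb 2 other G1/S genes reached 1.5, RBL1 and SKP2 (78 tags with DHT and 51 with vehicle), the regions in both lists numbered 21, those in 1 list only 0 each, and the TCF7L2 peaks 11. In windows of 100 kb regions in both lists numbered 59, those higher with DHT 45, those at 1.5 or more 6, those at 1/1.5 or less 1, those in the DHT list only 7, those in the vehicle list only 8, and TCF7L2 peaks 38, of which 18 overlapped acetylation. Within the top 25000 peaks 15 regions were in both lists, 13 of them higher with DHT and 0 at 1.5 or more. On rank-matched heights 6 other G1/S genes and 3 member promoters were higher with DHT. Wider windows hold more places and the top peaks fewer. The cause of the other changes was not tested, and no depth of the libraries was given to set a detection limit.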

Other observations

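Some regions past 1.5 lay just outside the 50 kb windows and are named here for their ratios. In windows of 100 kb 6 of the 59 regions in both lists reached 1.5, where 14.6% of all regions did. Below CCND3, 73.5 kb from the gene, the region at chr6:41826210-41829179 had 73 tags with DHT and 25 with vehicle, a ratio of 2.92, while the tall region 65.7 kb above the gene had 78 tags with DHT and 77 with vehicle.

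Upstream of CDKN2B, regions at chr9:22087650-22089839 and chr9:22097130-22099739 were both higher with DHT. The nearer had 43 tags with DHT against 24 with vehicle (1.79), the farther 36 tags with DHT against 15 with vehicle (2.4). The 1 region within 100 kb that fell to 1/1.5 or less was near CDKN2C, with 10 tags with DHT and 19 with vehicle. Of all regions in both lists, 6.7% fell that far.

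CDK6, the kinase partner of the D-type cyclins, had 14 TCF7L2 peaks within 50 kb, the tallest of 216 tags and one over its promoter of 139 tags, and no H3K27Ac peak over its promoter in either list. Its tallest H3K27Ac peak had 39 tags with DHT and 35 with vehicle. CDK6 was chosen for mention after its values were seen.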
